A study of Mus musculus with 6 samples.

Results

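Interferon-stimulated genes are the genes that cells switch on when an interferon binds its receptor, and 49 of them were taken as a list and followed through 4T1 cells with and without an shRNA against NFAT1. A gene was measured where at least 1 probe set carried its symbol alone, and where there were several, the one with the highest 6-array mean stood for the gene. This gave 46 measured members of 18193 genes in all. Isg15, the ubiquitin-like modifier, shares its probe set with Gm9706, and Oas1g and Ifi44 had no probe set with a single symbol, so these 3 are not analysed as members.

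4T1 is a mouse mammary carcinoma line that forms tumours and metastases in mice. The NFAT1 shRNA cells had been transduced with a vector for an shRNA against this transcription factor, and the control cells with a control shRNA vector. Both had been kept under selection for 10 days before RNA was taken, and Affymetrix arrays numbered 1 to 3 were run for each group. The question is how the interferon response genes differ with the NFAT1 shRNA, beside the spread among arrays of 1 group. Whether the transduced cells were a pool or a clone is not given in the sources used here. Nor is it said that each array had a culture of its own, so the p-values cover a spread between samples that may be only technical. Values are log2 RMA signals, and differences are NFAT1 shRNA minus control. A difference of 1 is 2-fold.

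Interferons act in 2 main branches. Type I interferons bind Ifnar1 and Ifnar2, whose kinases are Jak1 and Tyk2, and Stat2 with Irf9 is part of the complex that binds the interferon-stimulated response element, or ISRE. Interferon gamma binds Ifngr1 and Ifngr2, whose kinases are Jak1 and Jak2, and its signal is read at the gamma-activated site, or GAS. The induced proteins sense foreign nucleic acid, degrade or block viral RNA, hold viruses at membranes and feed back on the pathway, and carcinoma cells can express many of them without infection.

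The ISRE is shown first because it is the sequence that type I signalling reads. RefSeq promoter windows of build GRCm38.p6, reaching from 250 bases before to 50 bases after the annotated start, were at hand for 34 of the 46 measured members. The core TTTCNNTTTC, or its reverse complement GAAANNGAAA, stood in 16 of the 34 windows (47.1%), against 1079 of 27025 genes (3.99%). The GAS letters TTCNNNGAA, which read the same on both strands, stood in 9 of the 34 windows (26.5%), against 2582 of 27025 genes (9.55%). Eif2ak2, Oas1a, Bst2, Ifitm3 and Igtp held both. A match is a run of letters, not a measured binding site. Below are 30 bases around the match nearest the start in 8 members with wide spread between arrays, written 5′ to 3′ in the direction of the gene, with the match in capitals.
Ifit1 (chr19:34640794-34640823, + strand, 85 bases before the start): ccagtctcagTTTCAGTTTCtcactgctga
Rsad2 (chr12:26456553-26456582, - strand, 120 bases before): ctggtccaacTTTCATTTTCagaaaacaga
Gbp2 (chr3:142620594-142620623, + strand, 59 bases before): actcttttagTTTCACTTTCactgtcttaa
Gbp3 (chr3:142559995-142560024, + strand, 39 bases before): acagtttcagTTTCTATTTCccagatccct
Igtp (chr11:58199512-58199541, + strand, 34 bases before): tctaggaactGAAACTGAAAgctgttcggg
Ifit3 (chr19:34583397-34583426, + strand, 122 bases before): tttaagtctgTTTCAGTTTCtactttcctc
Oas1a (chr5:120907520-120907549, - strand, 14 bases before): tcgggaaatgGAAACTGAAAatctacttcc
Irgm1 (chr11:48871425-48871454, - strand, 24 bases before): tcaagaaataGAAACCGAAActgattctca
Ifit1, Ifit3, Gbp3, Oas1a and Irgm1 each held a second match in the same window, and matches of either kind were counted also where they shared bases. The windows of Epsti1 and Plac8, the members that passed the test below, held neither set of letters. They are printed whole, with no capitals because nothing matched; for Plac8 this is the window of the first of its 2 annotated starts in the direction of the gene.
Epsti1 (chr14:77903989-77904288, + strand): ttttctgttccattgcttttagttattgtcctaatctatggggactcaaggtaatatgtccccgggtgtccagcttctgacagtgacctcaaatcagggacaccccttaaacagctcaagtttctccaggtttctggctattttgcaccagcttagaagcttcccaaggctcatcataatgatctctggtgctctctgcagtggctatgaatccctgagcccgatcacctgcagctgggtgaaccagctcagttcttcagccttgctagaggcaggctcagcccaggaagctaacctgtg
Plac8 (chr5:100572156-100572455, - strand): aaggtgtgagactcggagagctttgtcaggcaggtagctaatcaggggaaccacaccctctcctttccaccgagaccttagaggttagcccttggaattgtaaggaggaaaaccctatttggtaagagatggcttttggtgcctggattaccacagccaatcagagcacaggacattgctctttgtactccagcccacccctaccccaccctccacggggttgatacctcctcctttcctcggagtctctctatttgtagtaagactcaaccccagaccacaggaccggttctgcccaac

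The arrays had medians of 5.42 to 5.48, and RMA compresses differences of signals near or below these. NFAT1 shRNA 1 stood apart from its group: over all probe sets it correlated with the controls at 0.991 to 0.995 and with NFAT1 shRNA 2 and 3 at 0.986 and 0.985. Nfatc2, the gene of NFAT1, was read by 6 probe sets, of which 4 averaged lower in NFAT1 shRNA cells. On the one with the most negative difference, chosen after its values were seen, the signals were 5.15, 5.43 and 5.29 in NFAT1 shRNA cells, against 6.05, 6.18 and 5.91 in control cells, a difference of -0.76 (limma, adjusted p = 0.0707 in the fit of single probe sets). The brightest Nfatc2 probe set went the other way, with 6.19, 6.48 and 6.09 in NFAT1 shRNA cells, against 5.92, 5.92 and 5.86 in control cells (0.35, adjusted p = 0.251), so the probe sets do not settle the level of the targeted gene. Epithelial markers were above 6 on all arrays for 11 of 12 genes, Krt5 being the exception. The basal keratin Krt14 had the widest difference among them, at -2.12 (adjusted p = 0.123), with no overlap between groups. Ptprc, the pan-leukocyte marker, read 2.85 to 3.06 in NFAT1 shRNA cells and 2.91 to 3.01 in control cells, while Cd68, Csf1r and Cd14, macrophage genes of the same list of 12, were above 6 on all arrays, at 6.22 to 9.01. Of the fibroblast markers, 7 of 8 lay below the array medians on all arrays.

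With limma and Benjamini-Hochberg adjustment over all 18193 genes, 2 of the 46 members changed, both upward, namely Epsti1 and Plac8. That is 4.35% of the members called higher, against 0.181% of all genes called higher and 0.511% called in either direction. The list was chosen with earlier results of these data known, so these shares are no test of the list. At an unadjusted p under 0.05, 3 members were higher (6.52%) and 0 lower, against 10.1% and 7.01% of all genes. The groups did not overlap for the same pair of members (4.35%), against 22.8% of all genes. A higher mean in NFAT1 shRNA cells was found for 27 of 46 members (58.7%), which is near the 59.3% of all genes, so the balance of directions is no result about these genes. The median difference of the members was 0.095, against 0.043 over all genes. In bulk RNA of this kind, fewer cells that express a gene and less of its RNA per cell cannot be told apart.

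The members spread widely among the arrays of each group. The range over the 3 arrays, highest minus lowest on the log2 scale, had a median of 1.09 in NFAT1 shRNA cells and 1.11 in control cells for the members, against 0.305 and 0.195 for all genes. A range of at least 1 was seen for 27 members in NFAT1 shRNA cells (58.7%) and 25 in control cells (54.3%), against 7.11% and 1.32% of all genes. For 41 other interferon-induced genes, described further below, the shares were 31.7% and 34.1%. Among the 100 genes with the widest control range, 20 were members, or 43.5% of the members, each with a control range of at least 1.36. Among the 100 with the widest NFAT1 shRNA range, of at least 2.17, 6 were members. These are descriptions of 6 arrays, and members tended to be high or low on the same arrays, so they are not independent counts.

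The spread followed the same arrays from gene to gene. Control 1 was the lowest and control 2 the highest control array, with control 3 between them, for 43 of 46 members (93.5%), against 25.1% of all genes. That order was not particular to these genes, since it also held for 219 of the 240 genes with a control range of at least 1, of which 25 were members. NFAT1 shRNA 1 was the lowest array of its group for 42 of 46 members (91.3%), against 36.1% of all genes, and NFAT1 shRNA 3 was the highest for 32 and NFAT1 shRNA 2 for 12. Related genes shared this in part. NFAT1 shRNA 1 was lowest for 86.7% of 15 receptor and JAK-STAT genes and 70.7% of the 41 other interferon-induced genes. It was lowest for 50% of sensing adaptors and kinases, 43.8% of negative regulators and 0% of ligands. Control 1 was the lowest control for 90.2% of the 41. Set against the control mean, the median member lay at -0.55, 0.40 and 0.46 on NFAT1 shRNA 1, 2 and 3, and at -0.58, 0.54 and 0.06 on control 1, 2 and 3. The array numbered 1 was thus low in each group, by about the same amount. The labels give no date or batch that could be set beside this order, so the part of handling in it was not tested.

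**Figure D1:**
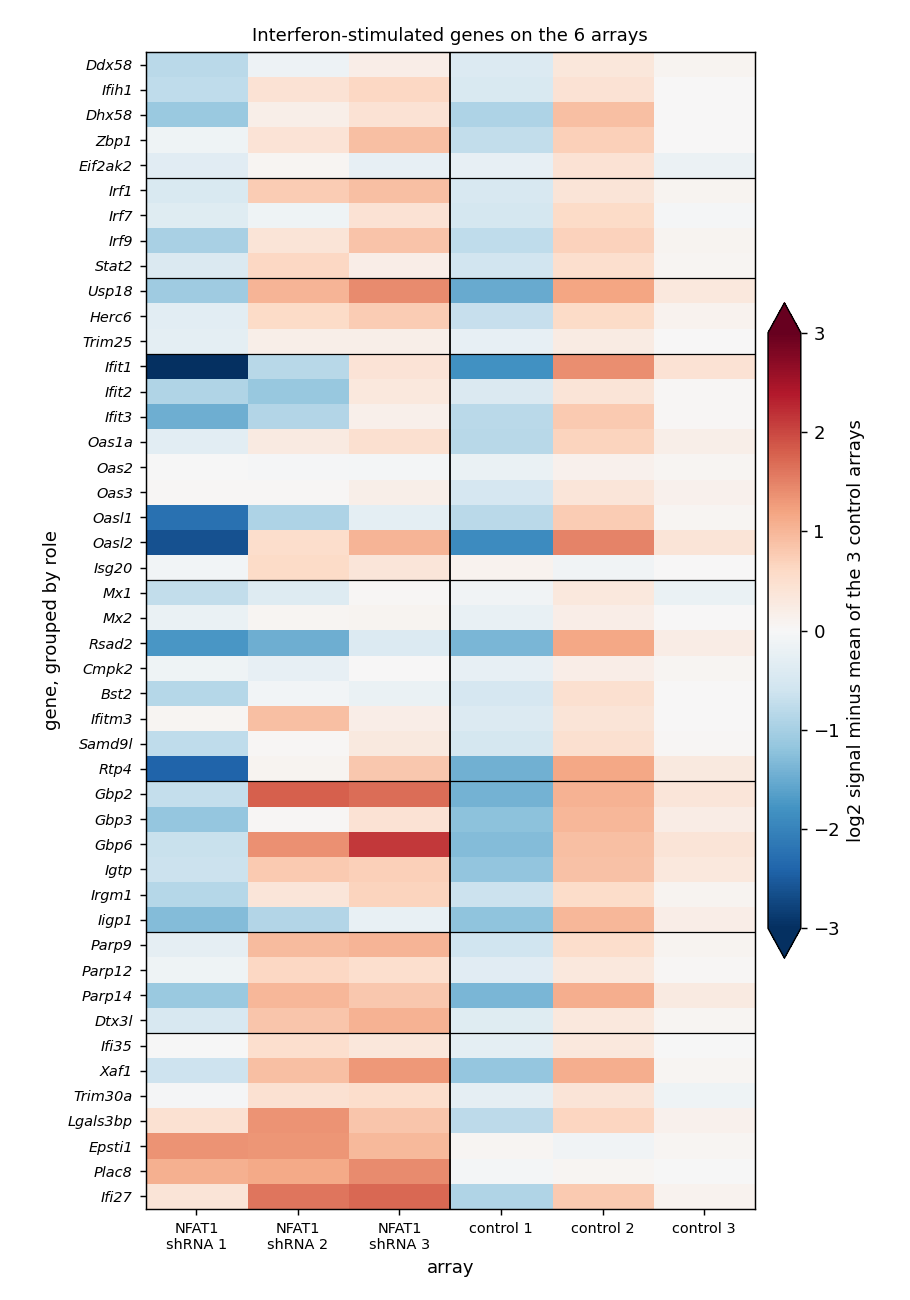
Log2 signal of the 46 measured interferon-stimulated genes (rows, grouped by role from sensors at the top to other induced genes at the bottom) on the 3 NFAT1 shRNA arrays and the 3 control arrays (columns), each minus the mean of the 3 control arrays; the colours stop at the ends of the scale. Both first columns are mostly blue, with medians of -0.55 on NFAT1 shRNA 1 and -0.58 on control 1, while Epsti1 and Plac8 are red on all NFAT1 shRNA arrays and pale on all control arrays.

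The difference between groups was smaller than the range within the controls for 43 of 46 members (93.5%), against 60.1% of all genes. The 95% interval of the difference included 0 for 43 members, and it was wider than 2 log2 units for 19 of the 46. The median SE of the difference was 0.400 for the members and 0.115 for all genes. A missed threshold here therefore does not show equal levels in the groups. Counts of higher or lower means are given by role below, where 59.3% of all genes had a higher mean. Members moved together over the arrays, so such a count is no result about a role.

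The sensors of foreign nucleic acid had no call among 5 members, with a median difference of -0.17. Ddx58, the RIG-I receptor for viral RNA, averaged 7.82 ± 0.51 in NFAT1 shRNA cells and 8.08 ± 0.38 in control cells (SD, n = 3 each), and differed by -0.25 ± 0.29 (SE). Ifih1, the MDA5 receptor for long double-stranded RNA, averaged 8.58 ± 0.75 in NFAT1 shRNA cells and 8.49 ± 0.45 in control cells. Dhx58, the regulator LGP2, differed by -0.17 and had a range of 1.56 in NFAT1 shRNA cells and 1.83 in control cells. Zbp1, a sensor of Z-form nucleic acid, differed by 0.40, and Eif2ak2, the kinase PKR that halts translation, by -0.17. All 5 had control 1 as the lowest control array and NFAT1 shRNA 1 as the lowest array of its group.

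The transcription factors of the response, Irf1, Irf7, Irf9 and Stat2, likewise gave no call, with 3 of 4 higher in the mean. Irf1, an early factor of the gamma branch, read 9.26, 10.46 and 10.62 in NFAT1 shRNA cells, against 9.23, 10.09 and 9.79 in control cells. Its first array was the low one in each group, and the groups overlapped, with a difference of 0.41 ± 0.40 (SE, adjusted p = 0.601). Irf9, the DNA-binding partner of Stat2, ranged over 1.82 in NFAT1 shRNA cells and 1.47 in control cells around means of 7.24 and 7.15. Stat2 differed by 0.13 and Irf7, the factor that amplifies type I interferon, by -0.01.

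Among genes of ISG15 conjugation, Usp18 had the widest spread. Usp18 removes ISG15 from proteins and damps receptor signalling. It read 5.19, 7.30 and 7.69 in NFAT1 shRNA cells, against 4.76, 7.45 and 6.60 in control cells. The first array lay more than 4-fold below the second in both groups, while the group difference was 0.46 ± 0.87 (SE, adjusted p = 0.801). Trim25, the ubiquitin ligase that activates RIG-I, read 10.50, 10.99 and 10.98 in NFAT1 shRNA cells, against 10.55, 11.06 and 10.81 in control cells. It was nearly level, at 0.02 ± 0.18 (SE), and its low array was again the first of each group. Herc6, the mouse ISG15 ligase, differed by 0.34 ± 0.40 (SE). Its dimmer probe sets gave 0.21, 0.23 and -0.67, and averaging its probe sets gave 0.026 (adjusted p = 0.959).

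The IFIT and OAS families bind or help degrade viral RNA, and 6 of these 9 members averaged lower with the NFAT1 shRNA. A higher mean was found for 33.3% of the 9, against 59.3% of all genes. The median difference of the 9 was -0.35, with 0 calls by limma, adjusted or at an unadjusted p under 0.05. Ifit1, which blocks translation of RNA without a host-type cap, read 4.03, 6.48 and 7.72 in NFAT1 shRNA cells, against 5.49, 8.70 and 7.73 in control cells. The highest and lowest arrays lay 12.9-fold apart in NFAT1 shRNA cells and 9.26-fold apart in control cells, and the groups overlapped. The means were 6.08 ± 1.88 in NFAT1 shRNA cells and 7.30 ± 1.65 in control cells (SD, n = 3 each). The difference of -1.23 ± 1.13 (SE) had a 95% interval from -3.94 to 1.48 and an adjusted p of 0.582. Leaving out NFAT1 shRNA 1 made it -0.21, and without control 3 as well it was 0.0064. It was -0.53 without control 2, -2.14 without control 1 and -2.05 without NFAT1 shRNA 3, so its size moved with several arrays.

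Ifit2, which binds AU-rich RNA, read 7.11, 6.87 and 8.33 in NFAT1 shRNA cells, against 7.58, 8.40 and 8.05 in control cells. Its NFAT1 shRNA 3 signal lay above control 1 and 3, so the groups overlapped, with a difference of -0.58 ± 0.41 (SE). Ifit3, the partner that stabilises Ifit1 in human cells, differed by -0.74 ± 0.53 (SE). Oasl1, which represses translation of Irf7 in mice, read 5.52, 6.84 and 7.46 in NFAT1 shRNA cells, against 6.95, 8.53 and 7.82 in control cells. NFAT1 shRNA 1 and 2 lay below all controls and NFAT1 shRNA 3 between control 1 and control 3, with a difference of -1.16 ± 0.58 (SE, adjusted p = 0.345). That difference ran from -1.58 without NFAT1 shRNA 3 to -0.61 without NFAT1 shRNA 1.

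Oasl2, an oligoadenylate synthetase-like protein, had the widest control range of the members. It read 3.58, 6.73 and 7.22 in NFAT1 shRNA cells, against 4.32, 7.67 and 6.59 in control cells. Control 1 and NFAT1 shRNA 1 lay below the array medians, and the ranges of 3.64 in NFAT1 shRNA cells and 3.36 in control cells far exceeded the difference of -0.35 ± 1.18 (SE). The synthetases Oas1a, Oas2 and Oas3, which make the activator of RNase L, differed by 0.14, -0.03 and 0.08, with control ranges of 1.50, 0.34 and 0.86. Isg20, an RNA exonuclease, read 9.37, 10.02 and 9.81 in NFAT1 shRNA cells, against 9.57, 9.34 and 9.46 in control cells. It was one of the few members whose lowest control array was not control 1, and its difference was 0.28 ± 0.17 (SE, adjusted p = 0.425), between 0.13 without NFAT1 shRNA 2 and 0.46 without NFAT1 shRNA 1. Members of these families are similar in sequence, so probe sets can read more than 1 of them and their separate values are uncertain.

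Genes that block viruses at membranes or during replication averaged lower with the NFAT1 shRNA for 7 of 8 members, again with 0 calls by limma at an adjusted or unadjusted p under 0.05. A higher mean was found for 12.5% of the 8, against 59.3% of all genes. Rsad2, the radical-SAM enzyme viperin, read 6.45, 6.74 and 7.79 in NFAT1 shRNA cells, against 6.84, 9.36 and 8.42 in control cells. NFAT1 shRNA 1 and 2 lay below every control, and NFAT1 shRNA 3 lay above control 1 only. The difference was -1.21 ± 0.66 (SE), with a 95% interval from -2.80 to 0.38 and an adjusted p of 0.377. It was -0.64 without control 2 and -1.90 without control 1, so its size depended on which control was kept. Cmpk2, the nucleotide kinase gene beside Rsad2, differed by -0.13 at signals below the array medians. A second Cmpk2 probe set, with a lower mean but wide spread, read 3.08, 4.45 and 5.68 in NFAT1 shRNA cells, against 3.92, 7.07 and 5.76 in control cells. The difference there was -1.18 with overlapping groups, and -0.65 with the probe sets averaged (adjusted p = 0.525), so the size for Cmpk2 depends on the probe set.

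Rtp4, a transmembrane chaperone that also acts against RNA viruses, read 6.47, 8.95 and 9.67 in NFAT1 shRNA cells, against 7.41, 10.03 and 9.14 in control cells. Its range of 3.21 in NFAT1 shRNA cells far exceeded the difference of -0.50 ± 0.97 (SE), and the groups overlapped. Mx1, a dynamin-like GTPase, read 3.41, 3.75 and 4.17 in NFAT1 shRNA cells, against 4.04, 4.45 and 3.94 in control cells. All of these lay under the array medians, so its difference of -0.36 ± 0.22 (SE) is of dim signals. Ifitm3, which stops viruses from fusing in endosomes, read 11.85, 12.68 and 11.97 in NFAT1 shRNA cells, against 11.38, 12.17 and 11.79 in control cells. It was the member of this group with a higher mean in NFAT1 shRNA cells (0.38 ± 0.28, SE; adjusted p = 0.489), and its groups overlapped. Bst2, the tether tetherin, differed by -0.38, Samd9l, which restricts translation, by -0.14, and Mx2 by -0.02.

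The GBP and IRG GTPases attack the vacuoles of intracellular microbes and are known mainly as interferon gamma targets. Their control range was 1.20 to 2.45, with a median of 2.20, and all 6 members ranged over at least 1 in both groups. Gbp2 read 6.54, 9.05 and 8.93 in NFAT1 shRNA cells, against 5.85, 8.30 and 7.62 in control cells. NFAT1 shRNA 2 and 3 lay above every control, while NFAT1 shRNA 1 lay below control 2 and 3. The means were 8.17 ± 1.42 in NFAT1 shRNA cells and 7.26 ± 1.26 in control cells (SD, n = 3 each). The difference was 0.92 ± 0.86 (SE, adjusted p = 0.588). A second Gbp2 probe set gave 0.81. Leaving out control 1 gave 0.22, leaving out NFAT1 shRNA 2 or 3 gave 0.48 or 0.54, and leaving out NFAT1 shRNA 1 gave 1.74 (adjusted p = 0.122). With the replicate number as a block, a pairing the labels do not name, limma called Gbp2 (adjusted p = 0.0309). In that setting 4.35% of all genes were called.

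Gbp6 read 4.36, 6.40 and 7.14 in NFAT1 shRNA cells, against 3.74, 5.94 and 5.41 in control cells. NFAT1 shRNA 2 and 3 again lay above every control and NFAT1 shRNA 1 below control 2 and 3, with a difference of 0.94 ± 0.83 (SE, adjusted p = 0.569). Leaving out control 1 gave 0.29, NFAT1 shRNA 3 gave 0.35 and NFAT1 shRNA 1 gave 1.74. Iigp1, an IRG protein, read 3.53, 3.95 and 4.61 in NFAT1 shRNA cells, against 3.64, 5.84 and 5.03 in control cells. Its NFAT1 shRNA arrays stayed below control 2 and 3 and below the array medians, with a difference of -0.81 ± 0.57 (SE, adjusted p = 0.473). Gbp3, Igtp and Irgm1 differed by -0.23, 0.28 and 0.05. Of the GTPases, 4 had a higher and 2 a lower mean. None was called and the groups overlapped for each, so these signs show neither a shared nor an opposed direction. GBP genes are also similar in sequence, and the Gbp2 probe set is of a kind prone to cross-hybridisation.

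Parp9 and Dtx3l form a ubiquitin ligase complex, and all 4 genes of this group averaged higher with the NFAT1 shRNA, against 59.3% of all genes. The median difference of the 4 was 0.40, with 0 calls by limma at an adjusted or unadjusted p under 0.05. Parp9 averaged 9.08 ± 0.73 in NFAT1 shRNA cells and 8.50 ± 0.57 in control cells, and Dtx3l averaged 8.57 ± 0.84 in NFAT1 shRNA cells and 8.10 ± 0.34 in control cells (SD, n = 3 each). Parp12, a mono-ADP-ribosyltransferase, differed by 0.33, and Parp14, a large macrodomain ADP-ribosyltransferase, by 0.22 with a control range of 2.45. Dtx3l passed the test without NFAT1 shRNA 1 (0.94, adjusted p = 0.0232), a setting in which 10.6% of all genes were called higher. Its difference was 0.47 with all arrays, and 0.29, 0.28 or 0.17 when control 1, NFAT1 shRNA 2 or NFAT1 shRNA 3 was left out.

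**Figure D2:**
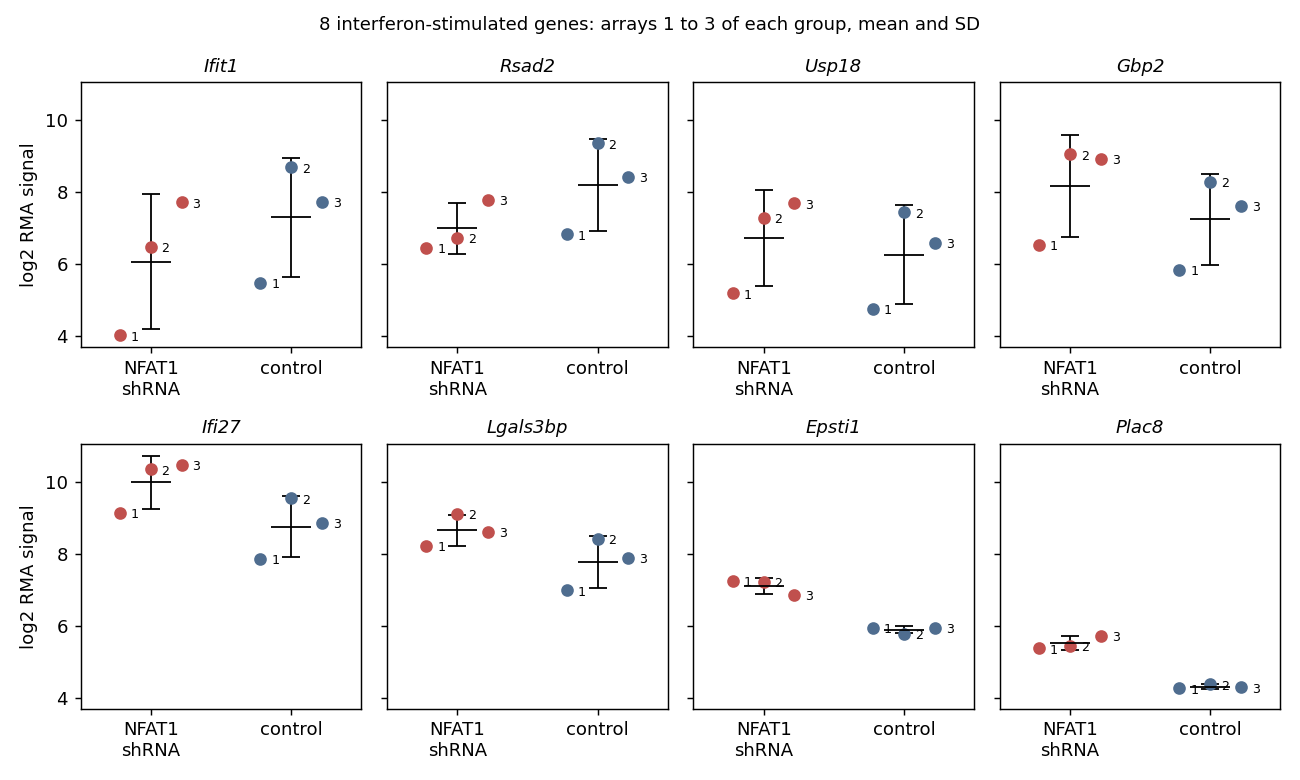
Log2 RMA signal of 8 members in the 3 NFAT1 shRNA arrays (left in each panel) and the 3 control arrays (right); numbers name the array, and the cross bars are the mean and SD. Ifit1, Rsad2, Usp18, Gbp2, Ifi27 and Lgals3bp overlap between groups, whereas Epsti1 and Plac8 are tight within groups and 1.22 and 1.21 apart.

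The remaining 7 induced genes all averaged higher with the NFAT1 shRNA, against 59.3% of all genes. The median difference of the 7 was 0.88, and 2 of them rose. Epsti1, a gene first found in breast carcinoma cells grown with stromal fibroblasts, read 7.24, 7.21 and 6.85 in NFAT1 shRNA cells, against 5.94, 5.78 and 5.94 in control cells. Every NFAT1 shRNA array lay above every control array, and the control arrays spanned 0.16, against a median control range of 1.11 over all members. The means were 7.10 ± 0.22 in NFAT1 shRNA cells and 5.88 ± 0.09 in control cells (SD, n = 3 each). Epsti1 rose by 1.22 ± 0.13 (SE), or 2.33-fold, with an adjusted p of 0.0281. Its other 3 probe sets, with signals below the array medians, gave 0.86, 0.24 and 0.08 and did not pass.

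Plac8, a small cysteine-rich protein of myeloid and epithelial cells, read 5.37, 5.45 and 5.72 in NFAT1 shRNA cells, against 4.26, 4.38 and 4.28 in control cells. The groups did not overlap, and the controls spanned 0.12. The means were 5.51 ± 0.19 in NFAT1 shRNA cells and 4.31 ± 0.06 in control cells (SD, n = 3 each). Plac8 rose by 1.21 ± 0.11 (SE), or 2.31-fold, with an adjusted p of 0.0193. The control signals lay below the array medians, so the true fold can be larger than this value.

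In both genes, NFAT1 shRNA 1 and control 1 lay within 0.39 of the other arrays of their group. Each was called without NFAT1 shRNA 1 (adjusted p = 0.00517 for Epsti1 and 0.00391 for Plac8), where 10.6% of all genes were called higher. Each was also called without NFAT1 shRNA 3 (0.0366 for both), where 0.363% of all genes were called. Neither passed without control 1, 2 or 3, where 0 of all 18193 genes passed and 1698, 2247 and 1761 had an unadjusted p under 0.05, nor without NFAT1 shRNA 2. Their differences in those 4 settings stayed between 1.16 and 1.24, with adjusted p-values of 0.0738 to 0.253. Of 12 macrophage and leukocyte markers, 0 were called by limma, adjusted or at an unadjusted p under 0.05, and 8 lay below the array medians on all arrays. Cd68, a macrophage lysosomal protein, read 6.23, 7.75 and 7.92 in NFAT1 shRNA cells, against 6.22, 6.85 and 6.55 in control cells, a difference of 0.76 (adjusted p = 0.406) with overlapping groups. Csf1r differed by -0.18 and Cd14 by 0.31. The summed linear signal of the 12 was 593 to 1331 in NFAT1 shRNA cells and 725 to 965 in control cells, and its part in the rise of Epsti1 and Plac8 was not tested.

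Ifi27, a small mitochondrial protein, read 9.14, 10.34 and 10.47 in NFAT1 shRNA cells, against 7.85, 9.54 and 8.85 in control cells. NFAT1 shRNA 2 and 3 lay above all controls, and NFAT1 shRNA 1 lay below control 2. The difference of 1.24 ± 0.51 (SE) had an unadjusted p of 0.0491 and an adjusted p of 0.290. It passed without NFAT1 shRNA 1 (1.66, adjusted p = 0.0472), where 10.6% of all genes were called higher, and was 0.79 without control 1. Lgals3bp, a secreted glycoprotein that binds galectins, read 8.22, 9.10 and 8.61 in NFAT1 shRNA cells, against 6.99, 8.41 and 7.89 in control cells. NFAT1 shRNA 1 lay below control 2 and the others above all controls, with a difference of 0.88 ± 0.39 (SE, adjusted p = 0.306). It was 0.49 without control 1. With the replicate number as a block, a pairing the labels do not name, limma called Lgals3bp (adjusted p = 0.0293) and Ifi27 (adjusted p = 0.0215). In that setting 4.35% of all genes were called. Array weights also called Ifi27 (adjusted p = 0.0495), where 18.6% of all genes were called.

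Ifi35, a leucine-zipper protein that also acts outside cells, read 10.39, 10.90 and 10.75 in NFAT1 shRNA cells, against 10.10, 10.71 and 10.38 in control cells. The groups overlapped, with a difference of 0.28 ± 0.20 (SE). Trim30a, a mouse TRIM protein that damps inflammatory signalling, read 4.79, 5.30 and 5.36 in NFAT1 shRNA cells, against 4.57, 5.23 and 4.70 in control cells. It was dim and overlapping, at 0.32 ± 0.22 (SE). Xaf1, a pro-apoptotic partner of XIAP, differed by 0.53 ± 0.69 (SE) and had a control range of 2.26.

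**Figure D3:**
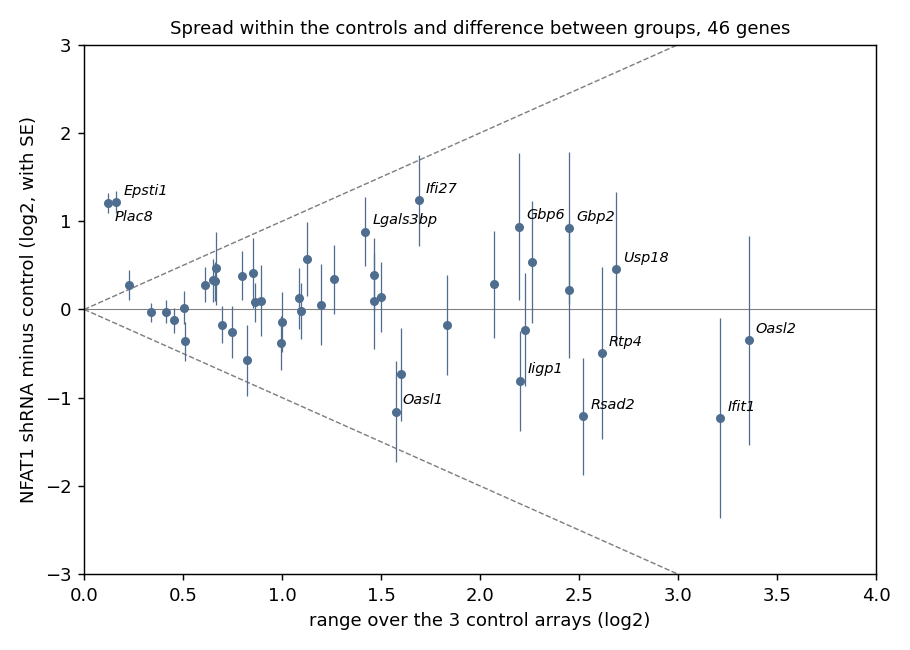
For each of the 46 members, the range over the 3 control arrays (horizontal, log2) and the difference between NFAT1 shRNA and control cells with its SE (vertical, log2); the dashed lines mark a difference as large as the control range. Of the members, 43 lie between the lines, and Epsti1 and Plac8 stand alone at the upper left.

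Leaving out arrays moved the list as a whole. The median difference ran from -0.21 without control 1 to 0.456 without NFAT1 shRNA 1, against 0.095 with all arrays. Without NFAT1 shRNA 1, 5 members were called, all higher (10.9%): Epsti1, Plac8, Ifi27, Dtx3l and Isg20. That share is near the 10.6% of all genes called higher there. Without NFAT1 shRNA 1 and control 3 together, the median difference was 0.458 and Epsti1 and Plac8 were called (4.35%), against 1.25% of all genes called higher. Over single probe sets, 2 of the 76 probe sets of the members were called, against 0.2% of all 45037 probe sets. Of the 20 members with more than 1 probe set, 15 had all of them on the same side of 0.

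Spread was set beside the promoter letters as a description, with no test. Members with an ISRE match had a median control range of 1.14, against 0.839 for the 18 without. The median difference between groups was 0.07 for members with a match and 0.28 for those without. For the GAS letters the ranges ran the other way, with a median control range of 0.823 for the 9 members with a match, against 1.09 for the 25 without, and 0.791 against 1.09 in NFAT1 shRNA cells. The 12 measured members without a window were not placed in either set. Epsti1 and Plac8, in the set without a match, had the 2 narrowest control ranges of all members.

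Other genes of the pathway were taken from 5 lists of 96 measured genes, 55 of them upstream (ligands, receptors with JAK-STAT genes, sensing adaptors and negative regulators) and 41 further induced genes. Of the 96, 1 was called (1.04%), against 0.511% of all genes, and a single call is no result about the pathway. At an unadjusted p under 0.05 there were 15 higher (15.6%) and 3 lower (3.13%), against 10.1% and 7.01% of all genes. Of the 8 measured interferons, 0 were called by limma and 1, Ifna1, had an unadjusted p under 0.05 (0.28, adjusted p = 0.196) at signals below the array medians. Ifnb1, the interferon made first after sensing, read 3.94 to 4.24 in NFAT1 shRNA cells and 4.16 to 4.43 in control cells. Ifng read 2.50 to 2.84 in NFAT1 shRNA cells and 2.62 to 2.79 in control cells. These 3 transcripts were dim on all 6 arrays.

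Receptor chains were read well above the array medians. Ifnar1 averaged 7.85 ± 0.35 in NFAT1 shRNA cells and 7.73 ± 0.15 in control cells, and Ifnar2 averaged 8.74 ± 0.71 in NFAT1 shRNA cells and 8.72 ± 0.34 in control cells (SD, n = 3 each). Ifngr1 differed by -0.02 and Ifngr2 by -0.26. Of the kinases, Jak1 differed by 0.12 ± 0.12 (SE). Jak2, of the gamma branch, read 10.04, 10.65 and 10.64 in NFAT1 shRNA cells, against 8.87, 9.40 and 9.21 in control cells. All its NFAT1 shRNA arrays lay above all controls, with a difference of 1.28 ± 0.21 (SE), and 1.45 on its other probe set, but the adjusted p of 0.0709 missed the threshold. It passed without NFAT1 shRNA 1 (1.48, adjusted p = 0.0048), a setting in which 10.6% of all genes were called higher. Tyk2, of the type I branch, read 7.51, 8.97 and 8.60 in NFAT1 shRNA cells, against 6.97, 7.65 and 7.47 in control cells. NFAT1 shRNA 1 fell among the controls, the adjusted p was 0.272, and a second probe set gave -0.07.

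Irf8, an interferon regulatory factor best known in myeloid cells and also induced by interferon gamma, was the gene of the 96 that passed. It read 6.29, 6.37 and 6.68 in NFAT1 shRNA cells, against 5.43, 5.39 and 5.21 in control cells. The groups did not overlap, and Irf8 rose by 1.10 ± 0.13 (SE), or 2.14-fold, with an adjusted p of 0.0346. On a second probe set Irf8 rose by 1.62 (adjusted p = 0.0174 in the fit of single probe sets). Irf2, which can oppose Irf1, differed by 0.46 with an adjusted p of 0.282. Like Epsti1 and Plac8, Irf8 did not pass without control 1, 2 or 3 or without NFAT1 shRNA 2, with adjusted p-values up to 0.253.

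Sensing adaptors and kinases gave 0 calls by limma among 16 genes, with 1 gene each way at an unadjusted p under 0.05. These were Ticam1, the adaptor TRIF (0.26, adjusted p = 0.287), and Sting1, the adaptor of cytosolic DNA sensing (-0.42, adjusted p = 0.284). Negative regulators gave 0 calls by limma among 16, with 3 higher at an unadjusted p under 0.05. They were Pias4, a SUMO ligase (0.36, adjusted p = 0.123), Irf2bp2, a corepressor of Irf2 (0.59, adjusted p = 0.246), and Ptpn6, a phosphatase of JAK kinases (0.44, adjusted p = 0.269).

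A further 41 interferon-induced genes gave 0 calls by limma, with 6 higher (14.6%) and 2 lower (4.88%) at an unadjusted p under 0.05. These shares are near the 10.1% and 7.01% of all genes, so the genes below are given for their values only. The lower ones were chemokine genes. Cxcl10, which draws T cells through Cxcr3, read 5.11, 4.88 and 5.48 in NFAT1 shRNA cells, against 5.82, 8.82 and 7.42 in control cells. Its NFAT1 shRNA arrays all lay below its controls, near the array medians, while its controls alone spanned 3.01, and the difference of -2.20 ± 0.70 (SE) had an adjusted p of 0.220. Ccl5 read 6.61, 6.91 and 7.87 in NFAT1 shRNA cells, against 7.44, 9.33 and 8.63 in control cells. NFAT1 shRNA 3 lay above control 1, and the difference of -1.33 ± 0.53 (SE) had an adjusted p of 0.278.

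The higher ones included Slfn2, a Schlafen gene of lymphocyte quiescence, which read 7.25, 9.29 and 9.05 in NFAT1 shRNA cells, against 5.80, 7.07 and 6.56 in control cells. Its groups did not overlap, and its difference of 2.06 ± 0.59 (SE) had an adjusted p of 0.192. Slfn2 passed without NFAT1 shRNA 1 (2.70, adjusted p = 0.0068), a setting in which 10.6% of all genes were called higher. Uba7, the activating enzyme for ISG15, differed by 0.53, Nlrc5, the transactivator of MHC class I genes, by 0.88, and Psmb9, an immunoproteasome subunit, by 1.25. Their adjusted p-values were 0.183, 0.209 and 0.252.

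**Figure D4:**
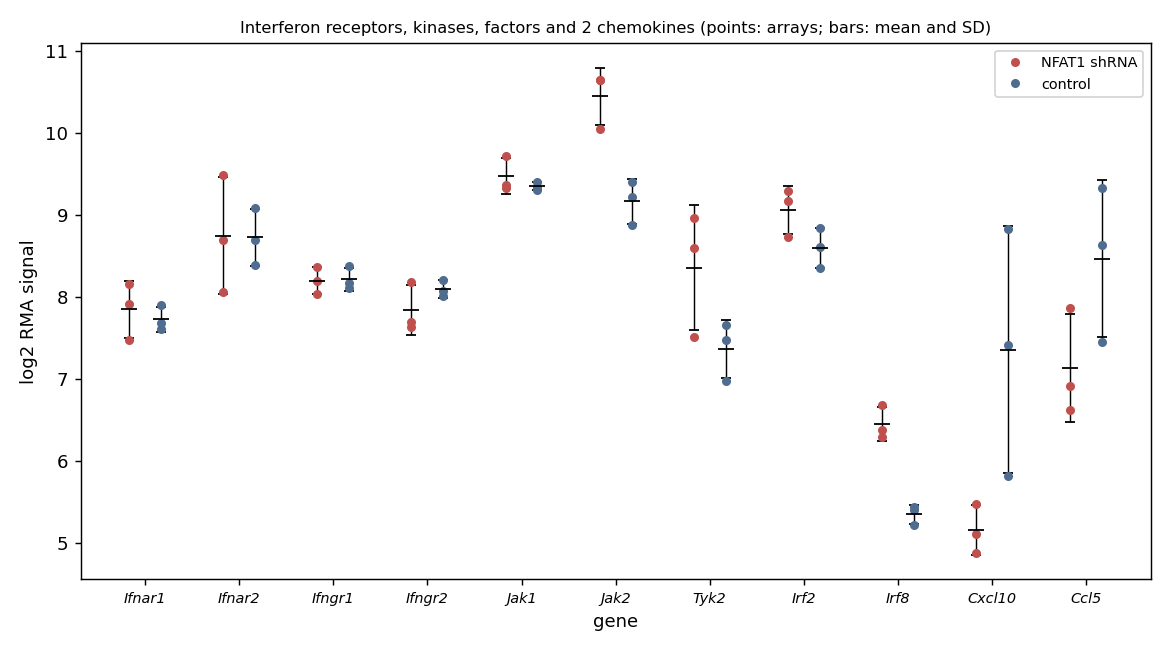
Log2 RMA signal of 11 interferon receptors, kinases, factors and chemokines in NFAT1 shRNA cells (left of each pair) and control cells (right); points are arrays, and bars are the mean and SD of 3 arrays. Irf8, Jak2 and Cxcl10 are separated between groups, while the receptors overlap. The controls of Cxcl10 span 3.01.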

How the data were processed

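Biotin-labelled RNA of 6 samples of 4T1 cells, 3 with NFAT1 shRNA and 3 with control shRNA, was hybridised to Affymetrix mouse arrays, and groups were taken from the sample titles. The authors deposited log2 signals, computed with RMA per the submitters' processing notes; its version is not given in the sources used here. RMA forces like distributions on all arrays and compresses dim signals. Of 45037 probe sets, 34945 carried 1 gene symbol in the platform annotation, giving 18193 genes with 1 probe set each. The test was limma 3.58.1 (lmFit, eBayes; R 4.3.3) over all genes with Benjamini-Hochberg adjustment, and called means an adjusted p under 0.05. The code was tested on simulated data. Promoter letters were counted with Python 3.11.15 in RefSeq windows of GRCm38.p6. The number of arrays, not a read depth, limits the precision.

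The members and the lists were chosen with earlier results of these data known. Values by array are given for Ifit1, Gbp2 and Epsti1, for called members, for the 12 members with the smallest p, the 5 with the highest mean and the 5 with the widest range in a group, and from the other lists for called genes and up to 4 each way at an unadjusted p under 0.05, of which some are given by their difference. Alternatives were left-out arrays, dim-gene filters, scaling, the variance prior, weights for arrays, a replicate block, other choices of probe set and a test against a log2 difference of 0.25.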

Additional observations from a re-analysis of the deposited data

How the results depend on the processing

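Of the 17 alternatives, each run by itself, 2 members were called in 8, and these were Epsti1 and Plac8, also with probe sets averaged per gene (Epsti1 0.60) and without probe sets prone to cross-hybridisation. Epsti1 was called in 12 of 17 settings and Plac8 in 12 of the 16 in which it was kept. With a mean of at least 6 in a group, 1 member was called (3.03%, against 0.726% of all genes), as Plac8 was filtered out. There 1 member had an unadjusted p under 0.05 (3.03%, against 20.9% of all genes). Against a log2 difference of 0.25, 1 member (2.17%) and 0 other pathway genes passed, against 0.126% of all genes. Array weights called 3 members (6.52%) and 17 other pathway genes (17.7%), against 18.6% of all genes. With these weights, 11 members had an unadjusted p under 0.05 (23.9%, against 35.1% of all genes). The replicate number as a block called 5 members (10.9%: Epsti1, Plac8, Ifi27, Gbp2 and Lgals3bp) and 11 other pathway genes (11.5%), against 4.35% of all genes, and 6 member probe sets (7.89%, against 3.18% of all probe sets). There 16 members had an unadjusted p under 0.05 (34.8%, against 25.0% of all genes), 11 higher and 5 lower. Same-numbered arrays deviated together for numbers 1 and 2 (Pearson 0.69 and 0.53 across genes) but not for 3 (-0.04). Control 3 correlated near 0 with every NFAT1 shRNA array (0.02, 0.015 and -0.04), so the third number could not show a pairing. Deviations from a mean of 3 arrays sum to 0, so these correlations are tied to each other. Those for numbers 1 and 2 are therefore not separate observations. NFAT1 shRNA 3 deviated with control 2 (0.46), so the deviations do not settle whether equal numbers mark pairs. The labels name no pairs, so none were taken in the main fit, and a shared batch was not tested. Without NFAT1 shRNA 1 and control 3, 8 members had an unadjusted p under 0.05 (17.4%, against 23.7% of all genes) and 3 other pathway genes were called (3.13%, against 2.24%). Leaving out 1 array gave 0 to 5 members called, 0 to 6 member probe sets called and 0 to 22 other pathway genes called. The lowest counts of calls came without control 1, 2 or 3 or NFAT1 shRNA 2. The highest came without NFAT1 shRNA 1. In that setting 10.9% of the members and 22.9% of the other pathway genes were called, against 18.4% of all genes. Of the member probe sets, 7.89% were called there, against 12.9% of all probe sets. Members with an unadjusted p under 0.05 numbered 2 to 12. The 2 (4.35%) came without control 3 or NFAT1 shRNA 2, against 9.68% and 10.2% of all genes. The 12 (26.1%) came without NFAT1 shRNA 1, against 32.2% of all genes. Members with a higher mean numbered from 15 without control 1 to 36 without control 2. The median difference of all genes was 0.044 and 0.031 there. The cause of these shifts was not tested.

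The sign of many uncalled differences turned when 1 array was left out. The lowest and highest differences were -0.48 and 0.021 for Ddx58, -0.64 and 0.30 for Dhx58, -0.30 and 0.049 for Eif2ak2, -0.16 and 0.53 for Ifih1, -0.28 and 0.27 for Irf7, -0.29 and 0.63 for Irf9, -0.16 and 0.40 for Stat2, -0.30 and 1.22 for Usp18, -0.0029 and 0.67 for Herc6, and -0.11 and 0.18 for Trim25. They were -0.28 and 0.47 for Oas1a, -0.13 and 0.038 for Oas2, -0.17 and 0.26 for Oas3, -1.29 and 0.78 for Oasl2, -0.13 and 0.076 for Mx2, -1.22 and 0.45 for Rtp4, and -0.40 and 0.17 for Samd9l. They were -0.84 and 0.27 for Gbp3, -0.31 and 0.75 for Igtp, -0.27 and 0.51 for Irgm1, -0.46 and 0.89 for Parp14, -0.048 and 1.11 for Xaf1, -0.037 and 0.31 for Ifnar1, -0.35 and 0.36 for Ifnar2, -0.10 and 0.065 for Ifngr1, -0.12 and 0.043 for Ifng, and -0.0036 and 0.19 for Jak1. Without NFAT1 shRNA 1 and control 3 the sign turned for Ddx58 (0.057), Dhx58 (0.31), Gbp3 (0.35), Ifit1 (0.0064), Ifngr1 (0.041), Irf7 (0.14), Mx2 (0.0702), Oasl2 (0.98), Rtp4 (0.59) and Samd9l (0.19). Array weights turned Dhx58 (0.0801), Eif2ak2 (0.053), Ifngr1 (0.054), Irf7 (0.077), Mx2 (0.016) and Oas3 (-0.0065). Subtracting array medians turned Ifnar2 (-0.00044), a second quantile normalization turned Ifngr1 (0.0069), and averaging probe sets per gene turned Ifnar2 (-0.20), Stat2 (-0.064) and Trim25 (-0.00398). For these genes the data set no direction.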
